A study of Rattus norvegicus with 8 samples.

Results

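The Rab genes code for small GTPases that direct the traffic of membranes inside cells. Members were the probes, controls aside, whose gene name on the array, without the endings that mark predicted or mapped genes, is Rab followed by a number and an optional letter, leaving out the Rab3 names that carry a letter. The rule uses names only and no expression value, though it was set with earlier results of these data known. It gave 69 of the 41012 probes and 43 of the 35561 gene names. All 43 names were matched to RefSeq, and 5 older names are written here in their current form as Rab1a, Rab2a, Rab7a, Rab9a and Rab39a. One member, Rab2l, is an older name of a gene that RefSeq now calls Ralgdsl2 and does not describe as a Rab GTPase, so counts are also given without it.

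As background, a Rab protein switches between a GTP-bound form, which sits on a membrane and recruits effectors such as tethers, motors and sorting proteins, and a GDP-bound form that is drawn off the membrane. Each Rab marks its own set of membranes, from the endoplasmic reticulum and Golgi to early, recycling and late endosomes, lysosomes and secretory vesicles. Neurons rely on these routes to carry receptors and membrane between the cell body, dendrites, axon and synapses, and to bring worn material to lysosomes.

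The study set neurons labelled as dying beside neurons labelled as surviving in the CA3 field of the rat hippocampus after brain injury. The animals were male Sprague-Dawley rats of an age that the labels do not give. They received moderate fluid percussion brain injury, sham surgery without injury, or no treatment at all (naive), and the brains were frozen, those of injured rats 24 hours after the injury. Single neurons were cut by laser from thin sections stained with Fluoro-Jade, a dye of degenerating neurons. In injured rats the dying group is the stained neurons, and the surviving group is unstained neurons lying next to stained ones. Each injured sample pooled about 600 neurons, and pools joined cells of several rats, so an array stands for a pool and not for an animal. Which of the pair of amplification kits named in the labels served which pool is not stated there. Each of the 4 groups has 2 arrays, 1 pool on each 1-colour rat array. The surviving and dying arrays lie on 1 slide and the sham and naive arrays on another, and the file headers name a different protocol of the image analysis software for each slide, so slide, protocol and injury cannot be told apart in any comparison with sham. Surviving and dying neurons were compared within 1 slide.

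Levels are given on a log2 scale as the processed signal of a probe over the median of its array, so 0 is the median probe. A gene is read from its brightest probe, and levels of different genes are not compared, since probes differ in brightness. The median processed signal was 28.8 and 22.7 on the naive arrays, 16.5 and 16.4 on sham, 52.4 and 48.3 on surviving, and 19.4 and 53.0 on dying replicates 1 and 2. The software marked 22445, 22390, 20910, 20191, 29345, 27079, 24057 and 27995 probes as well above background on the 8 arrays in the same order. The small number of arrays limits the precision of every value, and p-values measure only the spread between these pools. Fewer cells and less RNA per cell cannot be told apart in pooled samples.

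Dying replicate 1 stood apart from the other 7 arrays. Across the 15250 probes above background on all arrays, which share each array's scaling and are not independent, its log2 levels had Pearson r = 0.891 with dying replicate 2 and 0.816 and 0.842 with the surviving arrays. Dying replicate 2 had r = 0.934 and 0.941 with those same arrays, higher than with its own replicate, and the pairs of naive, sham and surviving arrays had 0.966, 0.985 and 0.976. Of the 23 Rab genes above background on both dying arrays, 16 were lower on replicate 1, by a median replicate difference of -0.63, while over all such probes that median was 0.44. The main results that rest on the dying arrays are therefore also given without replicate 1.

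Cell type markers were read on the same arrays, as the sum of scaled signal (signal over the array median, linear scale) over each list. Of the 7 pyramidal neuron markers on the array all were above background on every array, except Grik4 on dying replicate 1, and their sum, mostly Nrgn, was 6116 and 9145 on naive, 12434 and 10565 on sham, 7319 and 7137 on surviving, and 4820.2 and 4358 on dying. Microglia and macrophage markers, 8 of 11 above background on the uninjured arrays (without Itgam, Cx3cr1 and Ptprc) and 9 to 11 on the injured (without Ptprc on 3 arrays and Cx3cr1 on dying replicate 1), summed to 128 and 267 on naive, 279.9 and 252 on sham, 362 and 374 on surviving, and 1983 and 1140.5 on dying, with C1qa or C1qb brightest. The dying arrays were thus lowest in the pyramidal sum, which Nrgn carries, and highest in the microglial sum. By the median log2 level of the pyramidal list only dying replicate 1 was lowest (2.07), while dying replicate 2 (4.96) was above naive replicate 1 (4.07) and sham replicate 1 (4.87). Oligodendrocyte markers (8 of 8, without Cldn11 on naive replicate 2, Plp or Mog brightest) summed to 1264 and 1135 on naive, 1879 and 1791 on sham, 171 and 202 on surviving, and 239 and 187 on dying. Oligodendrocyte precursor markers (3 or 4 of 4, Olig2 not above background on 5 arrays, Olig1 brightest) summed to 386 and 383 on naive, 576 and 432 on sham, 251 and 280.1 on surviving, and 1002 and 544 on dying. The injured arrays were below the uninjured ones in the oligodendrocyte sum, and the dying arrays above the surviving ones in the precursor sum. Interneuron markers (5 or 6 of 6, Gad1 or Gad2 not above background on 7 arrays, and Vip, Sst or Pvalb brightest) summed to 312 and 452 on naive, 415 and 394 on sham, 164 and 147 on surviving, and 669.7 and 158 on dying. Astrocyte markers (5 or 6 of 7, Fgfr3 or S100b not above background, Slc1a3 brightest) summed to 655 and 774 on naive, 1196 and 772 on sham, 425 and 440.0 on surviving, and 978 and 446 on dying. Endothelial markers (4 or 5 of 6, Tek on no array and Flt1 only on the injured ones, with Kdr, Cldn5 or Vwf brightest) summed to 54.6 and 87.3 on naive, 99.5 and 78.1 on sham, 57.8 and 54.4 on surviving, and 256 and 124 on dying. Dying replicate 1 was above dying replicate 2 and the surviving arrays in all 3 of these sums. The astrocyte sum is mostly Slc1a3, and the median log2 level of that list was lowest on dying replicate 1 (1.09, beside 2.95 on replicate 2 and 3.43 and 2.73 on surviving arrays), so the list as a whole did not follow the sum. The part of other cell types in the Rab values was not tested.

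**Figure D1:**
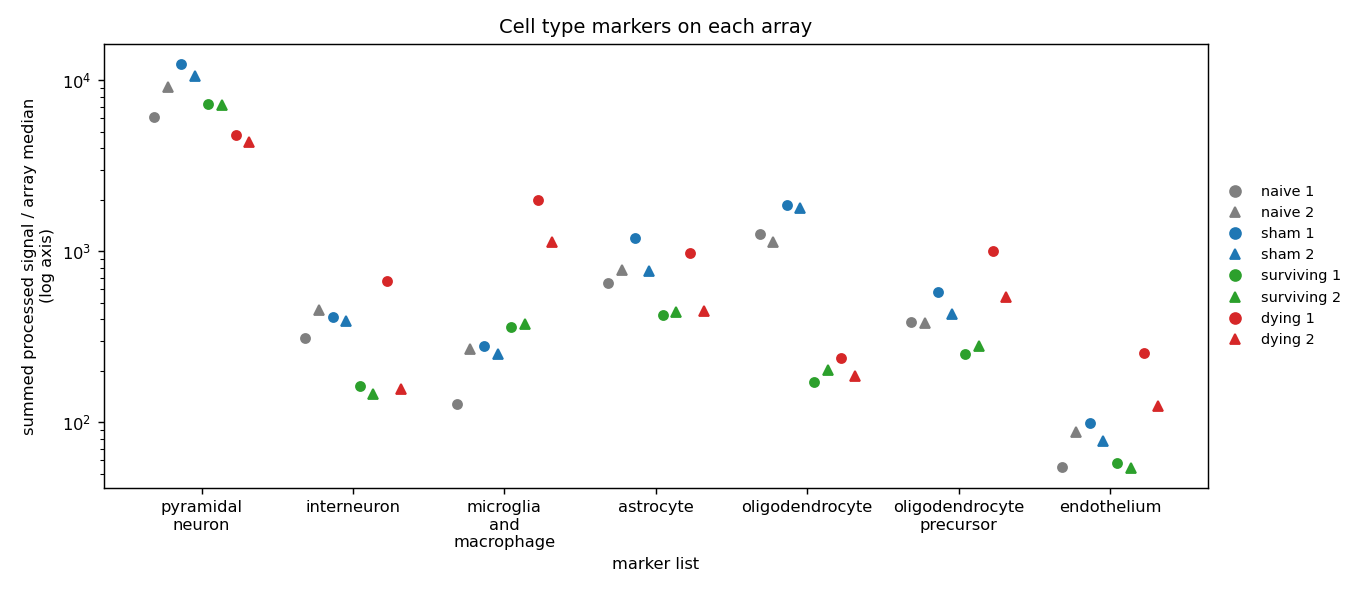
Summed scaled signal (log axis) of each marker list on each of the 8 arrays, 1 point per array. The microglial sum was 1983 and 1140.5 on the dying arrays and at most 374 on the other 6.

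Of the 43 Rab genes, 34 and 32 were above background on the naive arrays, 30 and 31 on sham, 37 and 33 on surviving, and 26 and 32 on dying. Of all probes, 54.7% and 54.6% were so on naive, 51.0% and 49.2% on sham, 71.6% and 66.0% on surviving, and 58.7% and 68.3% on dying arrays. Of the 69 Rab probes, 79.7% and 78.3% were so on naive, 73.9% and 73.9% on sham, 85.5% and 79.7% on surviving, and 58.0% and 78.3% on dying arrays, on dying replicate 1 under the share of all probes and on the other 7 above it. On both arrays of a group the counts were 31 for naive, 29 for sham, 33 for surviving and 23 for dying neurons, and 23 genes were above background on all 8 arrays. Rab5a, Rab9b, Rab25, Rab33b and Rab39a were above background on none of the 8, which leaves their level under what these probes detect. The median log2 level over the 43 genes was 3.43 and 3.85 on naive, 3.99 and 4.14 on sham, 3.16 and 3.08 on surviving, and 1.86 and 2.72 on dying arrays. Both dying arrays were thus below the other 6, dying replicate 1 furthest, and sham arrays were above the naive ones. The median log2 level of all probes above background was 2.21 and 2.90 on naive and 3.26 and 3.27 on sham arrays. It was 1.30 and 1.53 on surviving, and 2.11 and 1.45 on dying arrays, so it too was higher on sham than on naive arrays. Leaving out spots that the software marked as non-uniform removed a value of Rab12, Rab28 and Rab6a on at least 1 array.

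**Figure D2:**
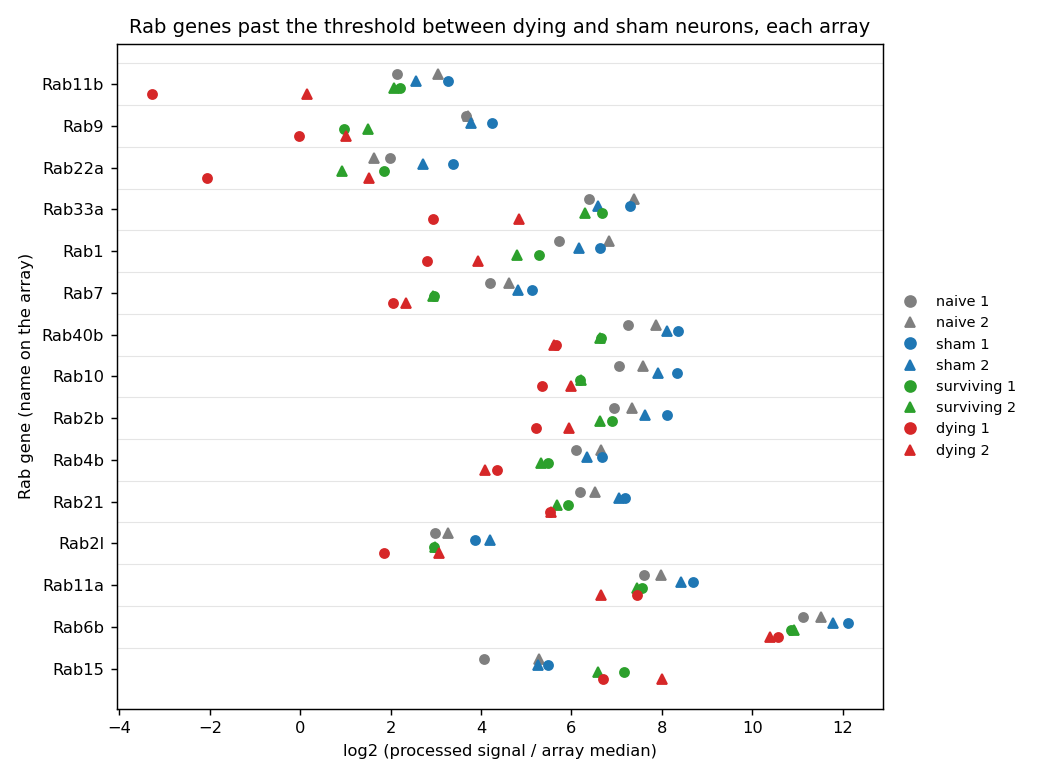
Log2 level (processed signal over the array median) of the 15 Rab genes that passed the test between dying and sham neurons, 1 point per array and 2 arrays per group, with Rab1a, Rab7a and Rab9a under their array names Rab1, Rab7 and Rab9. Rab1a, Rab2b, Rab4b, Rab6b, Rab7a, Rab9a, Rab10, Rab11a, Rab21 and Rab40b lay lower on all 4 injured arrays than on all 4 uninjured ones. Rab15 lay higher on the probe drawn, its brighter one, while its other probe ran the other way.

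Surviving and dying neurons came from the same injured tissue and differ in whether the dye of degeneration marked them. The surviving arrays had more signal for Rab genes than the dying arrays, a direction that the median kept under every scaling tried. It went down to 0.40 after scaling to RefSeq probes, where the all-probe median was -0.19. The Rab genes share the same arrays, so they are not replicates of the condition. The dying replicates themselves differed by a median of -0.63 over the 23 Rab genes above background on both. Of the 33 Rab genes above background on both arrays of either group, 30 were higher in surviving neurons, and between 27 and 30 of 33 were so under the 5 other scalings and the other background correction. Their median log2 difference, surviving minus dying, was 0.75 (0.64 over the genes measured regardless of background), beside 0.15 over all 27391 probes tested and 0.38 over the tested probes of RefSeq transcripts. Without Rab2l the count was 29 of 32. Of all probes tested, 55.9% were higher in surviving neurons, and of those of RefSeq transcripts 66.1%. The filter also lets in genes above background on both surviving arrays but not on both dying arrays, here and in the role groups below. Among the 23 Rab genes above background on every array of both groups, 20 were higher in surviving neurons. Their median was 0.53, beside an all-probe median of 0.027. No single Rab gene passed an adjusted p of 0.05 in limma, the smallest being 0.145, and 0% of all probes did. At an unadjusted p under 0.05 the count was 7 of 33 Rab genes higher in surviving neurons (21.2%, beside 10.2% of all probes) and 0 higher in dying neurons (beside 9.99%). The 7 were Rab11b, Rab33a, Rab40c, Rab1a, Rab4b, Rab8b and Rab2b. Of these, Rab40c was above background on neither dying array, and Rab8b and Rab11b were not on dying replicate 1. The filter let these in through the surviving arrays, so their share leans to that side. Among the 23 genes above background on every array of both groups, 4 were higher in surviving neurons (17.4%, beside 7.06% of all probes) and 0 higher in dying neurons (beside 9.73%). The arrays of both groups did not overlap for 17 genes higher in surviving (51.5%, beside 30.6% of all probes) and 1 higher in dying neurons, Rab31 (beside 21.6%). Rab8b, Rab11b and Rab40c are among the 17.

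The size of this difference rested in part on dying replicate 1. Without it, with the lone dying array assumed to vary like the other groups, the median over the Rab genes was 0.37, beside an all-probe median of 0.14. Higher in surviving neurons were 23 of 33 Rab genes, beside 56.8% of all probes. Among the Rab genes 0 then passed the adjusted threshold in limma, and 5 did at an unadjusted p under 0.05, 4 higher in surviving neurons (Rab4b, Rab11b, Rab33a and Rab40c, 12.1% beside 6.74% of all probes) and Rab5b higher in dying neurons (3.03% beside 6.32%). With dying replicate 2 left out instead, the median was 1.04 and 7 Rab genes passed, Rab8b, Rab11b, Rab13, Rab14, Rab22a and Rab33a higher in surviving and Rab27b higher in dying neurons, which is 20.6% of the Rab genes tested, beside 17.9% of all probes. Of these 7, Rab8b, Rab11b, Rab14 and Rab22a were not above background on dying replicate 1, the dying array used there, so the size of their differences is not known. A fit on the 4 injured arrays alone, within 1 slide, called 0 and had 4 at an unadjusted p under 0.05, all higher in surviving neurons (12.1% beside 6.78% of all probes). A plain filter on probes above background on all 4 injured arrays, with replicates close together and a change over 2-fold, kept 3 of 37 Rab probes (8.11%, beside 4.97% of all probes). All 3 were higher in surviving neurons, with ratios of 2.26 for Rab4b, 2.01 for Rab40b and 2.68 for 1 probe of Rab2b.

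Sham rats had the surgery without the injury, so dying against sham neurons sets injured and degenerating cells against uninjured ones, across slides. The dying arrays had less Rab signal than the sham arrays, a direction that the median kept under every scaling tried. Here too the genes share the same arrays and are not replicates of the condition. Of 29 Rab genes tested, 27 were lower in dying neurons, with a median log2 difference, dying minus sham, of -1.66 (-1.53 regardless of background) beside -0.47 over all 25623 probes and -0.81 over those of RefSeq transcripts. Higher in dying neurons were 6.90% of these Rab genes, beside 42.4% of all probes and 35.8% of those of RefSeq transcripts. In limma 14 fell (48.3%, beside 26.9% of all probes), namely Rab1a, Rab2b, Rab2l, Rab4b, Rab6b, Rab7a, Rab9a, Rab10, Rab11a, Rab11b, Rab21, Rab22a, Rab33a and Rab40b. The count without Rab2l was 13 of 28. Of the tested Rab genes only Rab15 rose, on the brighter of its 2 probes (3.45%, beside 13.2%). At an unadjusted p under 0.05 there were 21 lower (72.4%, beside 33.4%) and 1 higher (beside 18.7%).

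All 15 Rab genes kept their direction on the same probes under every alternative scaling, filter and left-out array, but many calls were lost. Of the 18 alternatives the call was kept in 4 for Rab2l, 5 for Rab6b, 5 for Rab22a, 6 for Rab11a, 8 for Rab21, 10 for Rab15 and 12 to 17 for the other 9. Those of Rab2l, Rab6b, Rab11a and Rab21 were lost at the 75th percentile, after quantile normalization, with RefSeq probes for scaling, in the series table and with a replicate block, that of Rab22a at the 75th percentile, after quantile normalization and in the series table, and those of Rab2b and Rab33a after quantile normalization. None of the 15 passed under the alternative background correction, where 0% of all probes did. Over all 18 alternatives dying minus sham ran from -3.83 to -1.94 for Rab1a, -2.65 to -1.08 for Rab2b and -2.44 to -1.07 for Rab4b. It ran from -6.21 to -1.09 for Rab11b and -4.01 to -1.95 for Rab33a. After quantile normalization, in the series table and when scaled by the probes above background on all arrays, Rab31 passed as higher in dying neurons. Without dying replicate 1 the median was -1.08 over the 32 genes then tested, 6 of them higher in dying neurons. Without dying replicate 2 it was -1.87 over 30 genes, 3 of them higher. With all arrays and both directions counted together the shares were 51.7% beside 40.2%, but 34.5% beside 43.4% after scaling to the 75th percentile, 31.0% beside 36.2% after quantile normalization and 41.4% beside 44.6% in the series table, so the larger share of calls depended on the scaling. The share lower at an unadjusted p under 0.05 stayed above that of all probes in these 3 (37.9%, 34.5% and 37.9%, beside 22.4%, 21.7% and 20.9%). With fewer sham arrays fewer calls passed among the Rab genes and among all probes alike. Without sham replicate 1 the count was 1, Rab9a (3.23% beside 6.89% of all probes), and without sham replicate 2 it was 6, Rab1a, Rab7a, Rab9a, Rab10, Rab11b and Rab40b (20% beside 14.0%), each time with the lone sham array assumed to vary like the other groups. The differences stayed about as large, for Rab1a -2.80 and -3.25 beside -3.03 and for Rab40b -2.47 and -2.73 beside -2.60.

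Surviving neurons came from injured rats and did not take the dye, so against sham they show unstained cells of injured tissue. This comparison too runs across slides. Of 33 tested, 26 were lower in surviving than in sham neurons. The share higher was 21.2%, beside 38.8% of all probes and 40.7% of those of RefSeq transcripts. The median difference was -0.78 (-0.83 regardless of background) beside -0.43 over all 26905 probes and -0.33 over those of RefSeq transcripts. The sign of the Rab median depended on the scaling. It was 0.0012 after scaling to the 75th percentile, 0.15 after quantile normalization, 0.088 in the values of the series table and 0.20 when scaled by the probes above background on all arrays, while the all-probe median moved to 0.35, 0.18, 0.45 and 0.55. Relative to the all-probe median, the Rab median was -0.35 here, -0.026 after quantile normalization and 0.12 after the alternative background correction.

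In limma 3 Rab genes fell in surviving against sham neurons, Rab7a, Rab9a and Rab10 (9.09%, beside 9.95% of all probes), and 0 rose (beside 5.55%). At an unadjusted p under 0.05 there were 9 lower (27.3%, beside 21.9%) and 1 higher, Rab15 (3.03%, beside 13.2%). Without any 1 of the 4 arrays compared the adjusted count was 0, with 3 to 5, all lower in surviving neurons, at an unadjusted p under 0.05 (9.09% to 15.2%, beside 11.3% to 15% of all probes lower and 7.51% to 9.04% higher). At the adjusted threshold 0.845% to 1.51% of all probes passed. The differences stayed about as large, for Rab10 from -2.14 to -1.72 beside -1.93. The calls also depended on the processing. None of the 3 passed with the series table or the alternative background correction, of the 3 only Rab9a passed after scaling to the 75th percentile, after quantile normalization and with a replicate block, and only Rab7a when scaled by the probes above background on all arrays. Among the other Rab genes Rab15 passed, higher in surviving neurons, after scaling to the 75th percentile or by the probes above background on all arrays, in the series table and after quantile normalization, and so did Rab40c except after quantile normalization. Over all alternatives the difference ran from -3.03 to -1.32 for Rab9a, from -2.23 to -0.84 for Rab7a and from -2.14 to -0.78 for Rab10. This comparison and that of dying with sham neurons share the sham arrays, so their values are given side by side and not set against each other as separate evidence. Whether the injured groups differ from each other was tested only in surviving against dying neurons.

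For the other comparisons the Rab median relative to the all-probe median was 0.60 between surviving and dying neurons, between 0.58 and 0.60 under 5 other scalings, 1.06 after the alternative background correction, 0.50 over probes above background on every array and 0.23 without dying replicate 1. Between dying and sham neurons it was -1.18, and from -1.27 to -0.93 under the same 6 alternatives, -0.60 over probes above background on every array and -0.79 without dying replicate 1.

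**Figure D3:**
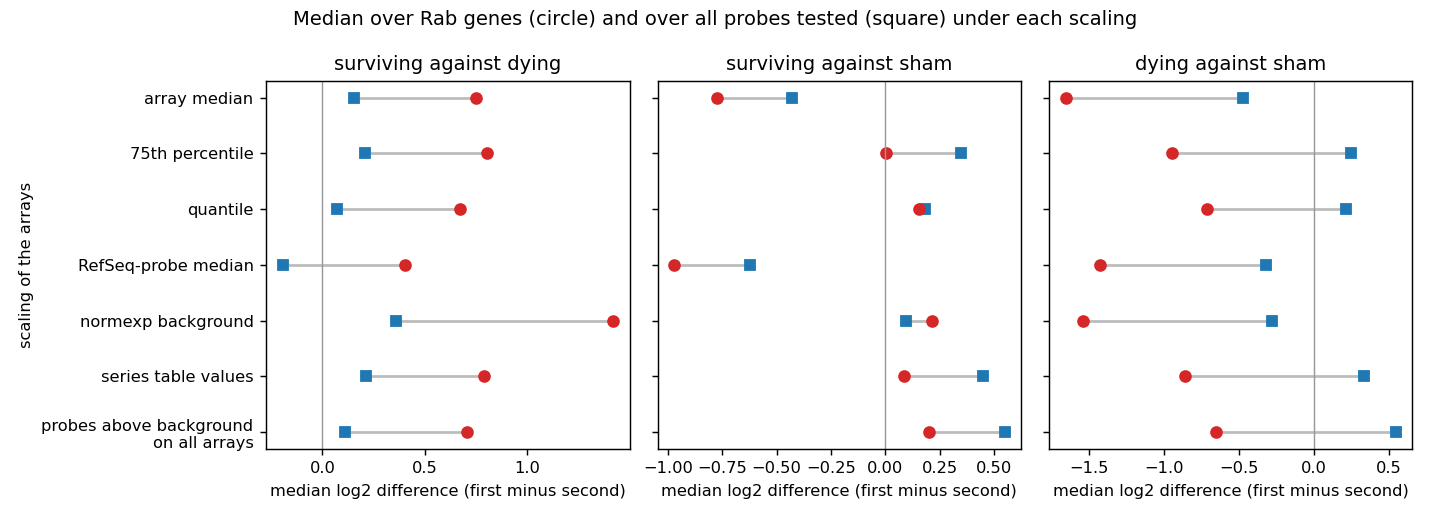
Median log2 difference of the Rab genes and of all probes tested, under each scaling and background correction, for each comparison with neurons of injured rats. For surviving minus sham the Rab median ran from -0.97 to 0.22, while for dying minus sham it was below 0 under every setting drawn.

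**Figure D4:**
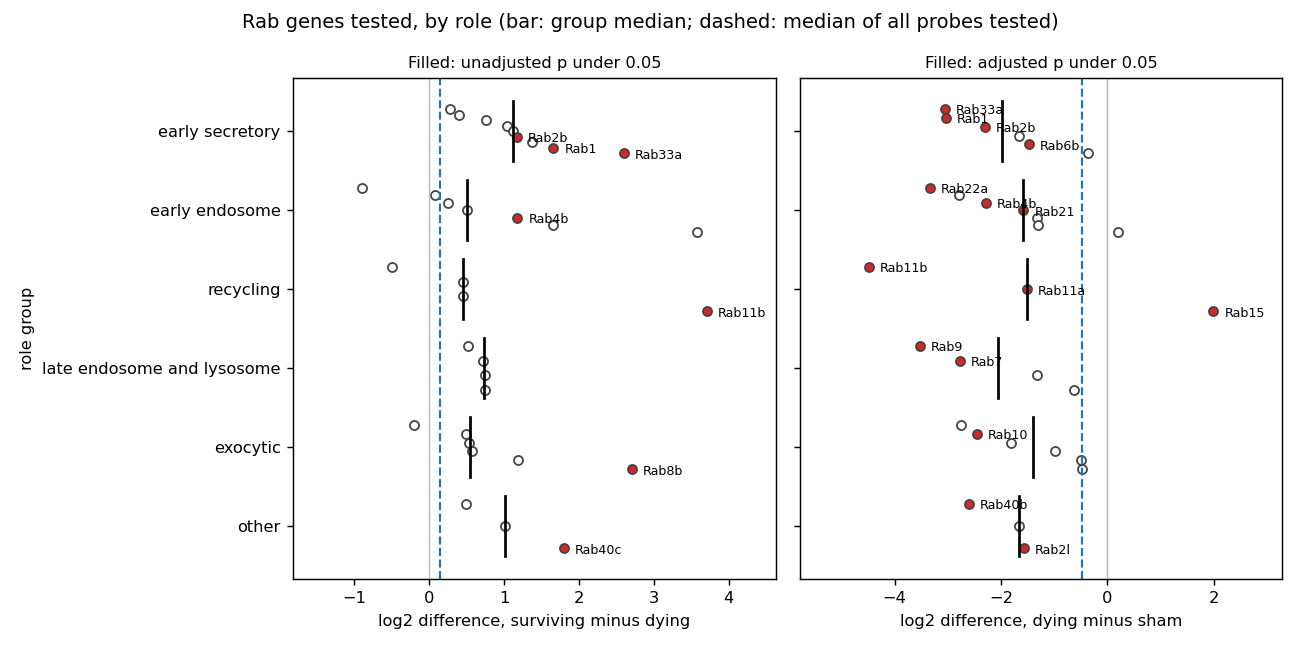
Log2 differences of the tested Rab genes by role group, surviving minus dying on the left and dying minus sham on the right, with the group median as a bar and the all-probe median dashed. Filled points have an unadjusted p under 0.05 on the left, where 0 passed the adjusted threshold in limma, and on the right they are the 15 that passed it.

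The stretches before the transcription starts are shown for 6 of the Rab genes that passed the test between dying and sham neurons. They are the 5 lower ones with the smallest p and Rab15, the one that rose. Whether any motif bears on these levels was not tested. The 250 bases upstream of the start come from RefSeq on build GRCr8, for 35 of the 43 Rab genes, and were searched on both strands for 5 motifs. The GC box (GGGCGG), bound by factors of the Sp family, was found for 30 of the 35 Rab genes and in 30.5% of all 33469 stretches. For each motif the Rab genes were counted per gene and the share of all per stretch, without selecting gene types. The Rab counts and these shares are therefore not like for like, and a difference between them is not read as a trait of Rab genes. The E-box (CACGTG) was in those of Rab5a, Rab21 and Rab31 and in 5.59% of all, and the CLEAR element (TCACGTGA) of lysosomal genes, which contains an E-box, in that of Rab21 and 0.657%. The cAMP response element (TGACGTCA) was in that of Rab25 and 1.59%, and the NRF1 element (GCGCA followed by its reverse complement) in that of Rab18 and 0.762%. A match describes the letters only. The sequences run 5′ to 3′ along each gene's strand, with capitals marking the GC box in either direction, since none of the 6 holds another of the motifs. They lie at chrX:31609839-31610088 (plus strand, 6 GC boxes) for Rab9a, chr4:122064186-122064435 (minus, 1) for Rab7a, chr10:107157376-107157625 (minus, 1) for Rab40b, chr6:32039555-32039804 (minus, 2) for Rab10, chr14:98623427-98623676 (plus, 2) for Rab1a and chr6:101257084-101257333 (minus, 1) for Rab15.
Rab9a: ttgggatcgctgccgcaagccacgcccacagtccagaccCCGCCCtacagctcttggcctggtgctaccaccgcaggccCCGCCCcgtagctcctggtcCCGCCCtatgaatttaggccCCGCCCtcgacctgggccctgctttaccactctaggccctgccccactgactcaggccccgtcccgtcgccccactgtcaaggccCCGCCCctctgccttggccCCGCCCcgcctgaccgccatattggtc
Rab7a: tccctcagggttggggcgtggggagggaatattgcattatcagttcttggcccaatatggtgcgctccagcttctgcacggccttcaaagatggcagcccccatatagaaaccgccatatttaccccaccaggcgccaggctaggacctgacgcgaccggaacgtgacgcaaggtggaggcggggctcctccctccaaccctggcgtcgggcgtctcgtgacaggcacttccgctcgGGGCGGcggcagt
Rab40b: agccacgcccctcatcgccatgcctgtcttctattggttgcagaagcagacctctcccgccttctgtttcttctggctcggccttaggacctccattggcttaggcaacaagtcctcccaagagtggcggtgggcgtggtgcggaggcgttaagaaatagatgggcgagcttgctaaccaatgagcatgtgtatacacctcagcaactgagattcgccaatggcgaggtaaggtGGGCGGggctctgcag
Rab10: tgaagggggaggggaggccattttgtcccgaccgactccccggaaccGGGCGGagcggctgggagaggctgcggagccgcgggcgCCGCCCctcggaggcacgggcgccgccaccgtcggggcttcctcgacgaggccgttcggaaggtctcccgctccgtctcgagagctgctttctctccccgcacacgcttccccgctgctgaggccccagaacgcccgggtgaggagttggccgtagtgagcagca
Rab1a: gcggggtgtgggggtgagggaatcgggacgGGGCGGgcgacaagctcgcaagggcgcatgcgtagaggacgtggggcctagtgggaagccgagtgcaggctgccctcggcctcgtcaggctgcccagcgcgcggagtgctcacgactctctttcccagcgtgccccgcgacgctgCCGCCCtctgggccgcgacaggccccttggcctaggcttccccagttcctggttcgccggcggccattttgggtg
Rab15: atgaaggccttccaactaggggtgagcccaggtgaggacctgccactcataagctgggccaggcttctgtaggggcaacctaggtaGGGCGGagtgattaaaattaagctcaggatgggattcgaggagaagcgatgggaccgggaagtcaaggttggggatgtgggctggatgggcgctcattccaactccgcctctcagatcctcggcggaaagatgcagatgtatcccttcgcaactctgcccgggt

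Among the 10 Rabs of the early secretory pathway, 9 were tested between surviving and dying neurons and all 9 were higher in surviving neurons, with a median difference of 1.12, or 0.50 with 6 of 9 higher without dying replicate 1. Of these, Rab6a, Rab18 and Rab43 were not above background on dying replicate 1, so the size of their differences is not known. On dying replicate 2 Rab6a (1.77) and Rab43 (1.95) were above both surviving arrays. Against sham, 4 of 6 fell in dying neurons (66.7% beside 26.9% of all probes, median -1.98). Without dying replicate 1 the median was -1.12 over the 9 genes then tested, 3 of them higher in dying neurons. In surviving neurons 0 of 9 passed against sham (beside 9.95% of all probes falling). At an unadjusted p under 0.05 there was 1 lower (11.1% beside 21.9% of all probes, median -0.30). Rab1a (NM_031090) had log2 levels of 5.73 and 6.84 on the naive arrays, 6.63 and 6.17 on sham, 5.27 and 4.80 on surviving, and 2.81 and 3.94 on dying. Rab1a carries vesicles from the endoplasmic reticulum to the Golgi. Its arrays formed 3 steps, the uninjured arrays highest, the surviving arrays next and the dying arrays lowest. The difference of surviving minus dying was 1.66 ± 0.61 (SE, 2 arrays per group, unadjusted p 0.0259, adjusted p 0.195), and 1.09 without dying replicate 1. Dying minus sham was -3.03 ± 0.61 (adjusted p 0.00844), an 8.14-fold fall, and surviving minus sham was -1.36 ± 0.61 (adjusted p 0.152). The other Rab1a probe gave -2.60 for surviving minus sham, past the threshold (adjusted p 0.0440), and -4.63 for dying minus sham (adjusted p 0.00386). This gene was named in earlier work on these same arrays, so its values here are not independent evidence, and whether the probe tells Rab1a from its pseudogenes was not tested.

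Rab33a (XM_229145) had log2 levels of 6.38 and 7.38 on the naive arrays, 7.31 and 6.59 on sham, 6.67 and 6.30 on surviving, and 2.94 and 4.84 on dying. Rab33a acts at the Golgi and on vesicles bound for growing axons. Both dying arrays were below the other 6, while the surviving arrays lay within or just under the naive and sham range. Surviving minus dying was 2.60 ± 0.72 (adjusted p 0.146), or 1.64 without dying replicate 1, and dying minus sham was -3.06 ± 0.72 (adjusted p 0.0138). Rab2b (BC092636) had log2 levels of 6.95 and 7.34 on the naive arrays, 8.12 and 7.63 on sham, 6.90 and 6.63 on surviving, and 5.22 and 5.94 on dying. Rab2b works, like Rab2a, between the endoplasmic reticulum and the Golgi. Its groups did not overlap, in the order sham, naive, surviving and dying from high to low. Surviving minus dying was 1.18 ± 0.50 (adjusted p 0.241), or 0.82 without dying replicate 1, and dying minus sham was -2.29 ± 0.50 (adjusted p 0.0111). Rab6b (XM_343459) had log2 levels of 11.13 and 11.52 on the naive arrays, 12.12 and 11.80 on sham, 10.85 and 10.92 on surviving, and 10.57 and 10.39 on dying. Rab6b is the brain-enriched form of the Golgi Rab6. Its groups also stood in that order without overlap. Surviving minus dying was 0.41 ± 0.46 (adjusted p 0.657), surviving minus sham -1.07 ± 0.46 (adjusted p 0.137) and dying minus sham -1.48 ± 0.46 (adjusted p 0.0349), and the direction against sham turned in surviving neurons under the alternative background correction. Its call in dying neurons was kept in 5 of 18 alternatives, with differences from -1.65 to -0.46. For Rab2a dying minus sham was -1.67 ± 0.62, which missed the threshold (adjusted p 0.0611). Without sham replicate 1 none of the calls of Rab1a, Rab2b, Rab6b and Rab33a held (adjusted p 0.0742 to 0.211), without sham replicate 2 only that of Rab1a did (0.0437 to 0.122), and without dying replicate 1 those of Rab33a and Rab6b did not (0.0358 to 0.0525).

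Of the 9 Rabs of the early endosome, 7 were tested. Surviving neurons were higher than dying neurons for 6 of them (median 0.51, or 0.31 with 5 of 8 higher without dying replicate 1). Against sham, 3 of 7 fell in dying neurons (42.9% beside 26.9% of all probes, median -1.58, or -1.36 over 8 genes without dying replicate 1). In surviving neurons 0 of 7 passed the threshold (beside 9.95% of all probes). At an unadjusted p under 0.05 there were 3 lower (42.9% beside 21.9% of all probes, median -1.10). Rab4b (NM_017355) had log2 levels of 6.11 and 6.66 on the naive arrays, 6.67 and 6.34 on sham, 5.47 and 5.33 on surviving, and 4.35 and 4.09 on dying. Rab4b returns cargo quickly from early endosomes to the surface. Its injured arrays lay below the uninjured ones, and the dying arrays below the surviving ones with little spread within each pair. Surviving minus dying was 1.18 ± 0.47 (unadjusted p 0.0366, adjusted p 0.219), and 1.31 without dying replicate 1, so this difference was not smaller without that array. Surviving minus sham was -1.10 ± 0.47 (adjusted p 0.139) and dying minus sham -2.28 ± 0.47 (adjusted p 0.00919). Rab21 (NM_001004238) had log2 levels of 6.18 and 6.53 on the naive arrays, 7.18 and 7.06 on sham, 5.92 and 5.68 on surviving, and 5.53 and 5.55 on dying. Rab21 takes part in the uptake of integrins. Its groups stood in the order sham, naive, surviving and dying without overlap, the last pair of groups close together. It fell by 1.58 in dying neurons (SE 0.45, adjusted p 0.0269), while surviving minus sham was -1.32 ± 0.45 (adjusted p 0.0797) and turned under the alternative background correction. The call was kept in 8 of 18 alternatives, with differences from -1.85 to -0.34. Rab22a (XM_345479) had log2 levels of 1.99 and 1.62 on the naive arrays, 3.39 and 2.72 on sham, 1.84 and 0.92 on surviving, and -2.07 and 1.52 on dying. Rab22a sorts cargo from early to recycling endosomes. Dying replicate 2 lay between the surviving arrays, and dying replicate 1 was not above background, which leaves the size of its difference uncertain. Dying minus sham was -3.33 ± 1.03 (adjusted p 0.0349), and -1.54 without dying replicate 1, when it no longer passed (adjusted p 0.106, with a range of 0.00298 to 0.416 over all alternatives). That call was kept in 5 of 18 alternatives, with differences from -5.12 to -1.07.

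The call of Rab4b, Rab21 and Rab22a against sham was lost without sham replicate 1 (adjusted p 0.0891 to 0.162) and without sham replicate 2 (0.0540 to 0.123). Rab4a, which acts like Rab4b, gave -1.32 ± 0.56 for dying minus sham (adjusted p 0.0876). Rab5c, a Rab of early endosome fusion, gave -1.23 ± 0.53 for surviving minus sham (adjusted p 0.139) and -1.31 ± 0.53 for dying minus sham (adjusted p 0.0770). Rab31, which carries cargo from the trans-Golgi network to endosomes, was the 1 tested member with a higher level in dying neurons (surviving minus dying -0.89 ± 0.48, adjusted p 0.328), a direction that turned under the alternative background correction and in the mean over its probes.

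The 5 Rabs of recycling endosomes showed both directions. Surviving neurons were higher than dying ones for 3 of 4 tested (median 0.45, or 0.48 with 3 of 4 higher without dying replicate 1). Against sham, 2 fell and 1 rose of 3 in dying neurons (66.7% and 33.3% beside 26.9% and 13.2% of all probes, median -1.51, or -1.47 over 4 genes without dying replicate 1). In surviving neurons 0 of 4 passed the threshold (beside 9.95% lower and 5.55% higher). At an unadjusted p under 0.05 there was 1 higher, Rab15 (25% beside 13.2% of all probes, median -0.86). Rab11b (NM_032617) had log2 levels of 2.15 and 3.05 on the naive arrays, 3.27 and 2.57 on sham, 2.20 and 2.08 on surviving, and -3.29 and 0.16 on dying. Rab11b, a form abundant in brain, runs the slow return of receptors through recycling endosomes. Both dying arrays were below the other 6, replicate 1 without signal above background, while the surviving arrays lay at or just under the naive range. Surviving minus dying was 3.71 ± 1.0 (unadjusted p 0.00577, adjusted p 0.145, the smallest of the 33 Rab genes), or 1.98 without dying replicate 1. Dying minus sham was -4.48 ± 1.0 (adjusted p 0.0117), or -2.76 without dying replicate 1. The values on both dying arrays average in a level not above background, so their size is uncertain, and only those without replicate 1 rest on measured signal. Rab11a (NM_031152) had log2 levels of 7.60 and 7.98 on the naive arrays, 8.69 and 8.42 on sham, 7.57 and 7.44 on surviving, and 7.45 and 6.65 on dying. Rab11a does the same work in most tissues. Sham arrays were highest, and dying replicate 1 lay between the surviving arrays. Dying minus sham was -1.51 ± 0.50 (adjusted p 0.0425), and surviving minus dying 0.46 ± 0.50 (adjusted p 0.643), or 0.86 without dying replicate 1. The call against sham was kept in 6 of 18 alternatives, with differences from -2.17 to -0.34. The other 2 Rab11a probes gave -2.94 and -2.07 for dying minus sham (adjusted p 0.00396 and 0.0174), and for surviving minus sham -2.28, past the threshold, and -1.05 (adjusted p 0.0193 and 0.190).

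Rab15 (M83679) had log2 levels of 4.07 and 5.28 on the naive arrays, 5.47 and 5.26 on sham, 7.15 and 6.59 on surviving, and 6.71 and 8.01 on dying. Rab15 takes part in endocytic recycling and is enriched in nervous tissue. All 4 injured arrays were above all 4 uninjured ones on this probe, and the surviving and dying arrays overlapped. It rose by 1.99 in dying neurons (SE 0.64, adjusted p 0.0390), and surviving minus sham was 1.51 ± 0.64 (adjusted p 0.135). Still on this probe, surviving minus dying was -0.49 ± 0.64 (adjusted p 0.707), or 0.16 without dying replicate 2. The other probe of Rab15, made to its RefSeq transcript (NM_198749), ran the other way, with levels of 3.69 and 4.14 on the naive arrays, 3.49 and 3.70 on sham, 3.36 and 3.39 on surviving, and 1.57 and 2.65 on dying. On that probe surviving minus dying was 1.26 and dying minus sham -1.48, so the rise of Rab15 holds for 1 of its 2 probes. Of the calls against sham, those of Rab11a, Rab11b and Rab15 were lost without sham replicate 1 (adjusted p 0.0783 to 0.216), those of Rab11a and Rab15 without sham replicate 2 (0.0459 to 0.154), and the same pair without dying replicate 2 (0.00234 to 0.126).

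The late endosome and lysosome group has 6 members, of which 4 were tested. It held the Rab genes with the smallest p against sham, 2 of 4 falling in dying neurons (50% beside 26.9% of all probes, median -2.05, or -1.82 without dying replicate 1) and 2 of 4 in surviving neurons (50% beside 9.95%, median -1.32). Between surviving and dying neurons all 4 were higher in surviving neurons (median 0.73, or 0.31 with 3 of 4 higher without dying replicate 1). None was so at an unadjusted p under 0.05, beside 10.2% of all probes. Rab9a (NM_053458) had log2 levels of 3.67 and 3.71 on the naive arrays, 4.25 and 3.77 on sham, 0.98 and 1.51 on surviving, and -0.032 and 1.02 on dying. Rab9a returns receptors of lysosomal enzymes from late endosomes to the trans-Golgi network. All injured arrays lay far below all uninjured ones, and dying replicate 2 was just above surviving replicate 1. Rab9a fell 11.5-fold in dying neurons (-3.52 ± 0.54, adjusted p 0.00391) and 6.82-fold in surviving neurons (-2.77 ± 0.54, adjusted p 0.0183). Rab7a (NM_023950) had log2 levels of 4.19 and 4.61 on the naive arrays, 5.13 and 4.81 on sham, 2.96 and 2.93 on surviving, and 2.05 and 2.34 on dying. Rab7a drives the passage of late endosomes and autophagosomes to lysosomes, and in axons the transport of neurotrophin receptors. Its groups did not overlap, in the order sham, naive, surviving and dying. Rab7a fell 6.86-fold in dying neurons (-2.78 ± 0.46, adjusted p 0.00486) and 4.09-fold in surviving neurons (-2.03 ± 0.46, adjusted p 0.0279). Over all alternatives dying minus sham ran from -4.04 to -1.77 for Rab9a and from -2.94 to -1.76 for Rab7a.

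In dying neurons the call of Rab9a was kept without any 1 array, and that of Rab7a was, of the left-out arrays, lost only without sham replicate 1 (adjusted p 0.0575, with a range of 0.00356 to 0.421 over all alternatives). In surviving neurons both calls were lost without either sham array or either surviving array, at adjusted p from 0.0981 to 0.215. Over all alternatives the surviving call was kept in 11 of 18 for Rab9a (adjusted p 0.00923 to 0.467) and 9 for Rab7a (0.0125 to 0.843). Whether the Rab7a probe tells the gene from its pseudogene was not tested. Rab24, an atypical Rab tied to autophagy, gave -1.32 ± 0.49 for dying minus sham (adjusted p 0.0623) and 0.72 ± 0.49 for surviving minus dying (adjusted p 0.448). Rab9b and Rab39a were not above background on any array.

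Of the 8 Rabs of exocytosis and polarised delivery, 6 were tested. Surviving neurons were higher than dying ones for 5 (median 0.55, or 0.21 with 4 of 5 higher without dying replicate 1). Against sham, 1 of 6 fell in dying neurons (16.7% beside 26.9% of all probes, median -1.40, or -0.88 over 5 genes without dying replicate 1). In surviving neurons 1 of 6 fell (16.7% beside 9.95%, median -0.59). It was Rab10 both times, and in dying neurons the share was under that of all probes. Rab10 (NM_017359) had log2 levels of 7.06 and 7.58 on the naive arrays, 8.34 and 7.92 on sham, 6.20 and 6.21 on surviving, and 5.35 and 6.0 on dying. Rab10 delivers membrane to the cell surface and to growing axons. Its groups did not overlap, in the order sham, naive, surviving and dying. Rab10 fell 5.49-fold in dying neurons (-2.46 ± 0.50, adjusted p 0.00838) and 3.80-fold in surviving neurons (-1.93 ± 0.50, adjusted p 0.0379). Over all alternatives the differences from sham ran from -3.73 to -1.26 in dying and from -2.14 to -0.78 in surviving neurons. The call in dying neurons was lost without sham replicate 1 (adjusted p 0.0830, with a range of 0.00620 to 0.435 over all alternatives), and that in surviving neurons without either sham array or either surviving array (adjusted p of these 0.151 to 0.256, with 0.0147 to 0.949 over all alternatives, 7 of 18 of which kept the call). Rab8b, which carries cargo from the Golgi to the plasma membrane, gave 2.71 ± 1.14 for surviving minus dying (unadjusted p 0.0437, adjusted p 0.235), but 0.62 without dying replicate 1, the array on which its probe was not above background, so the size of the first value is uncertain. Its difference of dying minus sham was -2.75 ± 1.14 (adjusted p 0.0833), of uncertain size for the same reason. Dying replicate 2 read 3.22 for Rab8b, beside 3.78 and 3.99 on the sham arrays. Rab12 is counted in this group, but is also placed on the way of the transferrin receptor to lysosomes. Without it the group medians were 0.53 for surviving minus dying (4 of 5 higher), -0.49 for surviving minus sham and -0.98 for dying minus sham, with the same calls. Rab12 gave -1.24 ± 0.50 for surviving minus sham (adjusted p 0.127), which turned in the mean over its probes. Its spot on dying replicate 2 was left out. With dying replicate 1 alone it gave -1.81 for dying minus sham and 0.57 for surviving minus dying. It is counted above with that 1 dying array, assumed to vary like the other groups.

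Of the 5 members outside these groups, 3 were tested between surviving and dying neurons, all higher in surviving ones (median 1.01, or 1.02 with 2 of 3 higher without dying replicate 1). Against sham, 2 of 3 fell in dying neurons (66.7% beside 26.9% of all probes, median -1.66, or -1.79 over 2 genes without dying replicate 1). In surviving neurons 0 of 3 passed the threshold (beside 9.95% of all probes). At an unadjusted p under 0.05 there was 1 lower (33.3% beside 21.9% of all probes, median -1.07). Rab40b (XM_221213) had log2 levels of 7.24 and 7.86 on the naive arrays, 8.37 and 8.10 on sham, 6.65 and 6.64 on surviving, and 5.65 and 5.62 on dying. Rab40b carries a SOCS box and acts within a ubiquitin ligase. Its groups did not overlap, in the order sham, naive, surviving and dying, and the members of each injured pair were nearly equal. Rab40b fell 6.06-fold in dying neurons (-2.60 ± 0.47, adjusted p 0.00609), and surviving minus sham was -1.59 ± 0.47, which missed the threshold (adjusted p 0.0548). Over all alternatives its dying minus sham ran from -2.73 to -1.42. Rab40c (NM_182675) had log2 levels of -3.09 and -1.99 on the naive arrays, -2.54 and -2.36 on sham, -1.25 and -1.30 on surviving, and -3.38 and -2.76 on dying. Rab40c, its relative with the same box, was above background on the 2 surviving arrays only. Its level in surviving neurons was at least 1.37-fold that in dying neurons (unadjusted p 0.0104, adjusted p 0.153), a direction that turned under the alternative background correction. For Rab2l, which fell, dying minus sham was -1.57 ± 0.54 (adjusted p 0.0497), or -0.96 without dying replicate 1, with the call kept in 4 of 18 alternatives (differences from -2.18 to -0.55). For Rab28, a divergent Rab, it was -1.66 with dying replicate 1 alone, an array assumed in the counts to vary like the other groups. The other Rab28 probe gave -3.40 on both dying arrays (adjusted p 0.0231), of uncertain size since it was not above background on dying replicate 1. The call of Rab40b was lost without sham replicate 1 and that of Rab2l without either sham array or dying replicate 1 (adjusted p 0.0658 to 0.211).

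Probes of the same Rab gene did not always move together. Of the 18 Rab genes with more than 1 probe, 6 had probes of opposite sign for surviving minus dying, Rab15, Rab31, Rab38, Rab5c, Rab6b and Rab8a. The opposite probe of Rab6b was above background on no array. Among the injured arrays that of Rab38 was so on dying replicate 2 only, so the signs of both probes are not known. In the 8 genes with at least 2 probes above background on all 4 injured arrays, the probes differed by more than 1 on the log2 scale for 2, Rab15 (-0.49 and 1.26) and Rab2b, whose 4 probes ranged from 0.32 to 2.24, all higher in surviving neurons. A dim probe of Rab31 was above background on both surviving arrays and on neither dying array, at least 3.47-fold higher in surviving neurons, against the direction of its bright probe. Among genes with a call on any probe against sham, further probes above background on both arrays of either group passed in dying neurons for Rab1a (1 of 1), Rab2b (2 of 3), Rab10 (2 of 2), Rab11a (2 of 2), Rab21 (1 of 1) and Rab28 (1 of 1), whose brightest probe did not, and for Rab6b, Rab15 and Rab22a 0 of 1 passed. In surviving neurons 0 of 2 further probes of Rab10 passed, and 1 of 1 of Rab1a and 1 of 2 of Rab11a did, whose brightest probes did not. Which transcripts these probes read was not tested.

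**Figure D5:**
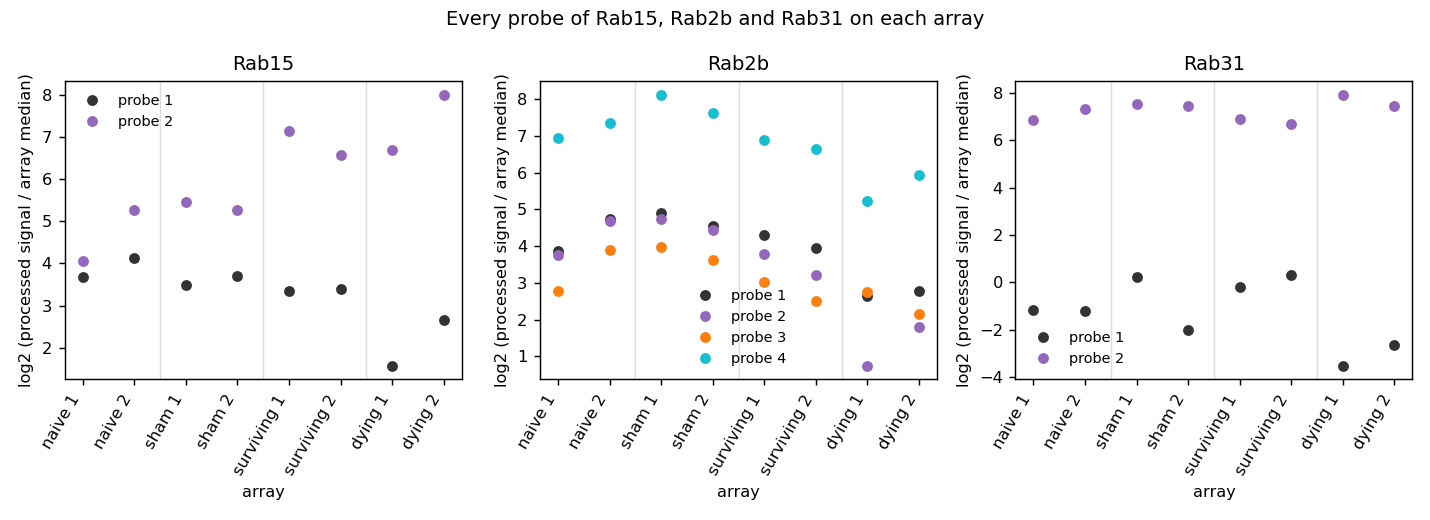
Log2 level of every probe of Rab15, Rab2b and Rab31 on each of the 8 arrays, 1 colour per probe. On the dying arrays the bright Rab15 probe read 6.71 and 8.01 and the other 1.57 and 2.65.

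Genes that work on Rab proteins were read beside them: the prenylation and extraction factors that load and remove Rabs, the exchange factors that switch them on, the GTPase activating proteins that switch them off, and effectors. Of 67 such genes on the array, 0 of 54 tested passed the adjusted threshold between surviving and dying neurons in limma, with 5 higher and 2 lower in surviving neurons at an unadjusted p under 0.05 (9.26% and 3.70%, beside 10.2% and 9.99% of all probes). Their median difference was 0.54, or 0.41 over 56 genes without dying replicate 1. Without dying replicate 2 the number past the threshold was 7 (12.7%, beside 17.9% of all probes). In dying against sham neurons 16 of 49 fell and 4 rose (32.7% and 8.16%, beside 26.9% and 13.2% of all probes, median -0.88, or -0.64 over 54 genes without dying replicate 1). By list, 3 fell and 0 rose of 5 prenylation and extraction factors, 3 fell and 1 rose of 13 exchange factors, 3 fell and 2 rose of 10 activating proteins and 7 fell and 1 rose of 21 effectors, with the same shares of all probes beside them. The total was 10 without dying replicate 1, 0 without sham replicate 1 and 4 without sham replicate 2 (18.5%, 0% and 7.84%, beside 24.7%, 6.89% and 14.0% of all probes). In surviving against sham neurons 2 of 54 fell and 3 rose (3.70% and 5.56%, beside 9.95% and 5.55% of all probes), and 0 passed without any 1 of the arrays compared.

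Rin2 and Rin3 are exchange factors for Rab5 and its relatives. Rin3 had log2 levels of 1.17 and 1.24 on the naive arrays, 2.06 and 3.17 on sham, 2.66 and 2.61 on surviving, and 5.98 and 4.71 on dying, higher on both dying arrays than on the other 6. Its difference of surviving minus dying was -2.71 ± 0.61 (adjusted p 0.133), or -2.07 without dying replicate 1, and it rose in dying against sham neurons (2.73 ± 0.61, or 2.09 without dying replicate 1, adjusted p 0.0116, 0.104 without sham replicate 1 in a range of 0.00683 to 0.104 over the left-out arrays). Rin2 was also lower in surviving than in dying neurons (-1.63 ± 0.47, or -1.74 without dying replicate 1, adjusted p 0.147). Bicd1, an adaptor that links Rab6 vesicles to dynein, was above background on both surviving arrays and neither dying array, at least 5.02-fold higher in the surviving ones (adjusted p 0.128). Bicd1 rose at least 1.79-fold in surviving against sham neurons (adjusted p 0.0170, 0.0904 to 0.138 without any 1 array). Mical1 had log2 levels of 4.62 and 5.10 on the naive arrays, 6.14 and 5.67 on sham, 4.80 and 4.76 on surviving, and -0.72 and 3.27 on dying, lowest on both dying arrays. This effector of Rab1 and of other Rabs fell in dying against sham neurons (-4.63 ± 1.09, or -2.64 without dying replicate 1, adjusted p 0.0141, 0.00234 to 0.0823 over the left-out arrays, lost without either sham array).

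Tbc1d20, which switches off Rab1, gave 3.23 ± 0.92 for surviving minus dying (adjusted p 0.147), and Tbc1d10b, also an activating protein, gave 1.15 ± 0.50 (adjusted p 0.246). Rabac1, which binds prenylated Rabs, gave 0.97 ± 0.57 (adjusted p 0.373). Without dying replicate 1 these 3 differences were 1.64, 1.01 and 0.91. Against sham the dying values were -2.64 ± 0.92 for Tbc1d20 (adjusted p 0.0507), -1.87 ± 0.50 for Tbc1d10b (adjusted p 0.0206) and -2.27 ± 0.57 for Rabac1 (adjusted p 0.0170), or -1.05, -1.74 and -2.21 without dying replicate 1. None of these 3 passed without either sham array or without dying replicate 1 (adjusted p 0.0558 to 0.213).

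Sham and naive neurons were both uninjured, and differ in the surgery that the sham rats had. Their arrays lie on the same slide. Of 31 Rab genes tested, 27 were higher in sham neurons (87.1%, beside 76.7% of all probes and 84.7% of those of RefSeq transcripts). The median difference was 0.63 beside 0.41 over all 20676 probes and 0.44 over those of RefSeq transcripts. The count was 18 of 31 after quantile normalization, and 17 of 31 when scaled by the probes above background on all arrays. Among these Rab genes 0 passed in limma (beside 0% of all probes). At an unadjusted p under 0.05 there was 1 higher in sham (beside 3.27%), Rab38 of melanosomes and lysosome-related organelles, at 1.33 ± 0.57 (adjusted p 0.902), and 0 higher in naive neurons (beside 0.687%). Without naive replicate 1 the median was 0.33 and the all-probe median 0.030, with the lone naive array assumed to vary like the other groups.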

How the data were processed

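Members and lists were chosen with earlier results of these data known. Per the file headers, Agilent Feature Extraction 9.1.3.1 made the intensities of each array, subtracting background and detrending within the array, with no scaling between arrays, and marked each spot as above background or non-uniform. The authors deposited a series table of signal values, processed signal over a constant per array with a floor, used here as an alternative. All 8 arrays in 4 groups of 2 were analysed. Spots of a probe were averaged without those marked as non-uniform, divided by the array median as in the authors' methods, floored at 0.01 and log2 transformed, so the few arrays per group leave wide errors. The brightest probe over all arrays stands for a gene.

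A model of 4 groups was fitted in limma 3.58.1 (with R 4.3.3 and data.table of version 1.17.8) with moderated errors. P-values were adjusted by Benjamini and Hochberg over the probes that the software marked above background on 2 arrays of either compared group, with a threshold of 0.05. Rab genes are named where the unadjusted p was under 0.05 in a comparison, where the probe was the brightest of its role group, or where probes differed by over 1, and Rab1a because the study names it. Machinery genes were named from those with the 2 smallest p of each list between surviving and dying neurons, and 1 of these is not described here. A fold is given as at least N when 1 group was not above background. The plain filter takes its background and replicate rules from the authors' methods, and applies the change between surviving and dying neurons, where those methods compare each with sham.

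Alternatives were other scalings (75th percentile, quantile, RefSeq probes), the limma normexp background correction (offset 50), the series table, other filters, a floor of 0.1, other choices of probe, a replicate block, only the compared groups, and each array left out. A scaling by probes above background on all arrays and a crossed block were added after seeing the data. Tables and figures used Python 3.11.15, pandas 2.3.3, numpy 2.4.6 and matplotlib 3.10.9.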

Additional observations from a re-analysis of the deposited data

How the results depend on the processing

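Between surviving and dying neurons the number of Rab genes past the threshold was 0 under every scaling, filter and probe choice, and from 0 to 7 with 1 array left out, the 7 without dying replicate 2. The median difference was 0.75, 1.42 after normexp background correction and 0.40 after scaling to RefSeq probes. Single genes turned: Rab15 to 0.93, Rab31 to 0.47 and Rab40c to -0.079 after normexp correction, Rab15 to 0.39 and Rab31 to 1.13 in the mean over probes, and Rab15 to 1.26 on its RefSeq probe. With 1 array left out Rab15 ran from -1.14 (without dying replicate 1) to 0.16 (without dying replicate 2).

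In surviving against sham neurons the median, -0.78, turned to 0.0012 at the 75th percentile scaling, 0.15 after quantile normalization, 0.22 after normexp correction, 0.088 in the series table and 0.20 with the scaling by probes above background on all arrays. It was -0.97 after scaling to RefSeq probes, -0.93 for genes above background on every array, and from -0.82 to -0.63 with 1 array left out. The 3 calls (9.09% beside 15.5% of all probes, both directions counted) became 0 after normexp correction, as for all probes, 5 with a floor of 0.1 (15.2% beside 20.3% of all probes), 11 in a fit of the 4 compared arrays alone (33.3% beside 38.9%), and 0 without any 1 array. Of the 3, none passed in the series table, and 1 did at the 75th percentile, after quantile normalization and with the scaling by probes above background on all arrays. With the other Rab genes the counts there were 2, 3, 2 and 3, by Rab15 and, except after quantile normalization, Rab40c, both higher in surviving neurons. Rab21 turned to 0.010 and Rab6b to 0.24 after normexp correction, Rab12 to 0.11 in the mean over probes and Rab15 to -0.22 on its RefSeq probe.

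In dying against sham neurons the median, -1.66, was -0.95 at the 75th percentile, -0.71 after quantile normalization, -0.86 in the series table, -2.17 in the mean over probes, and -0.65 with the scaling by probes above background on all arrays. With 1 array left out it ran from -1.87 to -1.08, over the 30 to 32 genes then tested. The 15 calls (51.7% beside 40.2% of all probes) became 9 after quantile normalization (31.0% beside 36.2%), 0 after normexp correction, as for all probes, 9 in a fit of the compared arrays alone (31.0% beside 33.4%), and 1 (without sham replicate 1) to 20 (without dying replicate 2) with 1 array left out. Rab15 turned to -1.48 on its RefSeq probe.

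In sham against naive neurons the count was 0 throughout, and the median, 0.63, was 0.34 at the 75th percentile, 0.22 after quantile normalization, 1.09 after normexp correction, 0.27 in the series table, 0.36 in the mean over probes, 0.39 on RefSeq probes, 0.17 with the scaling by probes above background on all arrays, and 0.33 to 0.80 with 1 array left out.

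With a replicate block the Rab genes past the threshold numbered 0 between surviving and dying, 1 in surviving against sham (3.03% beside 9.83% of all probes), 11 in dying against sham (37.9% beside 35.6%) and 0 in sham against naive neurons. With the surviving and dying replicates paired the other way, the count between them was 0. In each case the cause was not tested.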
